A study of Homo sapiens with 12 samples.

Results

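The genes described here are 9 genes of the urea cycle and of arginine metabolism, ASS1, ASL, ARG1, ARG2, CPS1, OTC, NAGS, SLC25A13 and SLC25A15, out of 58174 genes listed for each of 2 cell lines. They were chosen by their place in the pathway and because ASS1 moved in opposite directions in the 2 cell lines after IGF2BP1 knockdown. The values that chose them are thus the differences between knockdown and control libraries, which are given for the 9 genes as a description, and nothing is read from the p-values of that contrast. The filter asked for 0.1 FPKM or more (fragments scaled by gene length and library size) in 3 or more of 6 libraries, and it was passed by 9 of the 9 genes in Hep-G2 and by 6 of 9 in BE(2)-C, where ARG1, CPS1 and OTC did not.

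The study asked which RNAs depend on IGF2BP1, an RNA-binding protein that stabilises many mRNAs in tumour cells. Hep-G2, a liver cancer line derived from a hepatoblastoma, and BE(2)-C, a neuroblastoma line, were transfected with a control siRNA (siC) or with a pool of siRNAs against IGF2BP1 (siI1). Cells were harvested 72 h later, and poly-A RNA was sequenced in 3 libraries for each siRNA and cell line, 12 in total. Each cell line is a single tumour-derived line, a pool of siRNAs lowers the target and does not remove it, and p-values measure the spread between cultures of the same line. The libraries held between 12852988 and 15721210 reads on genes.

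The urea cycle turns ammonia into urea in hepatocytes. CPS1, switched on by the N-acetylglutamate that NAGS makes, forms carbamoyl phosphate in mitochondria, and OTC joins it to ornithine to give citrulline, which leaves through the exchanger SLC25A15 while ornithine enters. In the cytosol ASS1 joins citrulline to aspartate, ASL splits the product into arginine and fumarate, and the arginases ARG1, in the liver cytosol, and ARG2, in mitochondria of many tissues, split arginine into urea and ornithine, while SLC25A13 (citrin) brings aspartate out of mitochondria. Outside the liver, ASS1 and ASL serve to remake arginine from citrulline, and tumour cells that lose ASS1 need arginine from outside.

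IGF2BP1 itself was lower in the siI1 libraries of both cell lines. In Hep-G2 it stood at 48.5, 46.6 and 50.8 FPKM with siC and at 12.6, 10.7 and 10.7 FPKM with siI1, and in BE(2)-C at 21.3, 20.6 and 21.6 FPKM with siC and at 4.85, 4.75 and 4.87 FPKM with siI1. The siC and siI1 groups did not overlap in either line, with log2 differences of -2.10 and -2.11. One library stood somewhat apart, with 1 siI1 library of Hep-G2 (replicate 1) correlating with the other siI1 libraries at r = 0.985 and 0.986, over 11247 genes with at least 1 FPKM in each of the 6 libraries, where the remaining pair correlated at 0.994. Genes are not replicates, and these r values only describe the libraries. The values of ASS1, ASL, CPS1, SLC25A13 and SLC25A15 in Hep-G2 are given with and without it.

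The labels of the cell lines were checked against marker genes. The 10 hepatocyte markers summed to 8602 FPKM or more in each Hep-G2 library and to 0.237 FPKM or less in each BE(2)-C library, where HNF4A, AFP, AHSG and FGB had no read. The 11 neuroblastoma markers summed to 3723 FPKM or more in each BE(2)-C library, led by MYCN, and to 0.269 FPKM or less in Hep-G2. Of 7 fibroblast and blood markers, 5 passed the filter in BE(2)-C, PDGFRB, LUM, DCN, COL1A1 and COL1A2, with siC means of 16.6, 6.36, 3.85, 0.698 and 0.178 FPKM, and the leukocyte gene PTPRC had no read there.

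ASS1, which makes argininosuccinate and sets the pace of arginine synthesis, lies at chr9:130444961-130501274 on the plus strand of GRCh38 and has 15 exons in its canonical transcript. In Hep-G2 its level was 27.9, 28.4 and 27.4 FPKM with siC and 40.2, 47.3 and 47.3 FPKM with siI1. Its BE(2)-C level was 256, 223 and 233 FPKM with siC and 80.2, 81.3 and 74.1 FPKM with siI1. Each Hep-G2 siI1 library was thus above each siC library and each BE(2)-C siI1 library below each siC library, with no overlap in either line. On the log2(FPKM + 0.1) scale, which understates changes of low genes, the difference between siI1 and siC was 0.68 (SE 0.0737, n = 3 and 3) in Hep-G2, or 1.61-fold higher by the means. The BE(2)-C difference was -1.59 (SE 0.0652, n = 3 and 3), or 3.02-fold lower. Between 1182 and 2100 reads per library lay behind the Hep-G2 values and between 3140 and 11217 behind those of BE(2)-C. Without Hep-G2 siI1 replicate 1, the lowest of its group, the Hep-G2 difference was 0.76. The difference in direction is what ASS1 was selected on, and it was not tested. In bulk RNA, fewer expressing cells and less RNA per cell cannot be told apart.

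**Figure D1:**
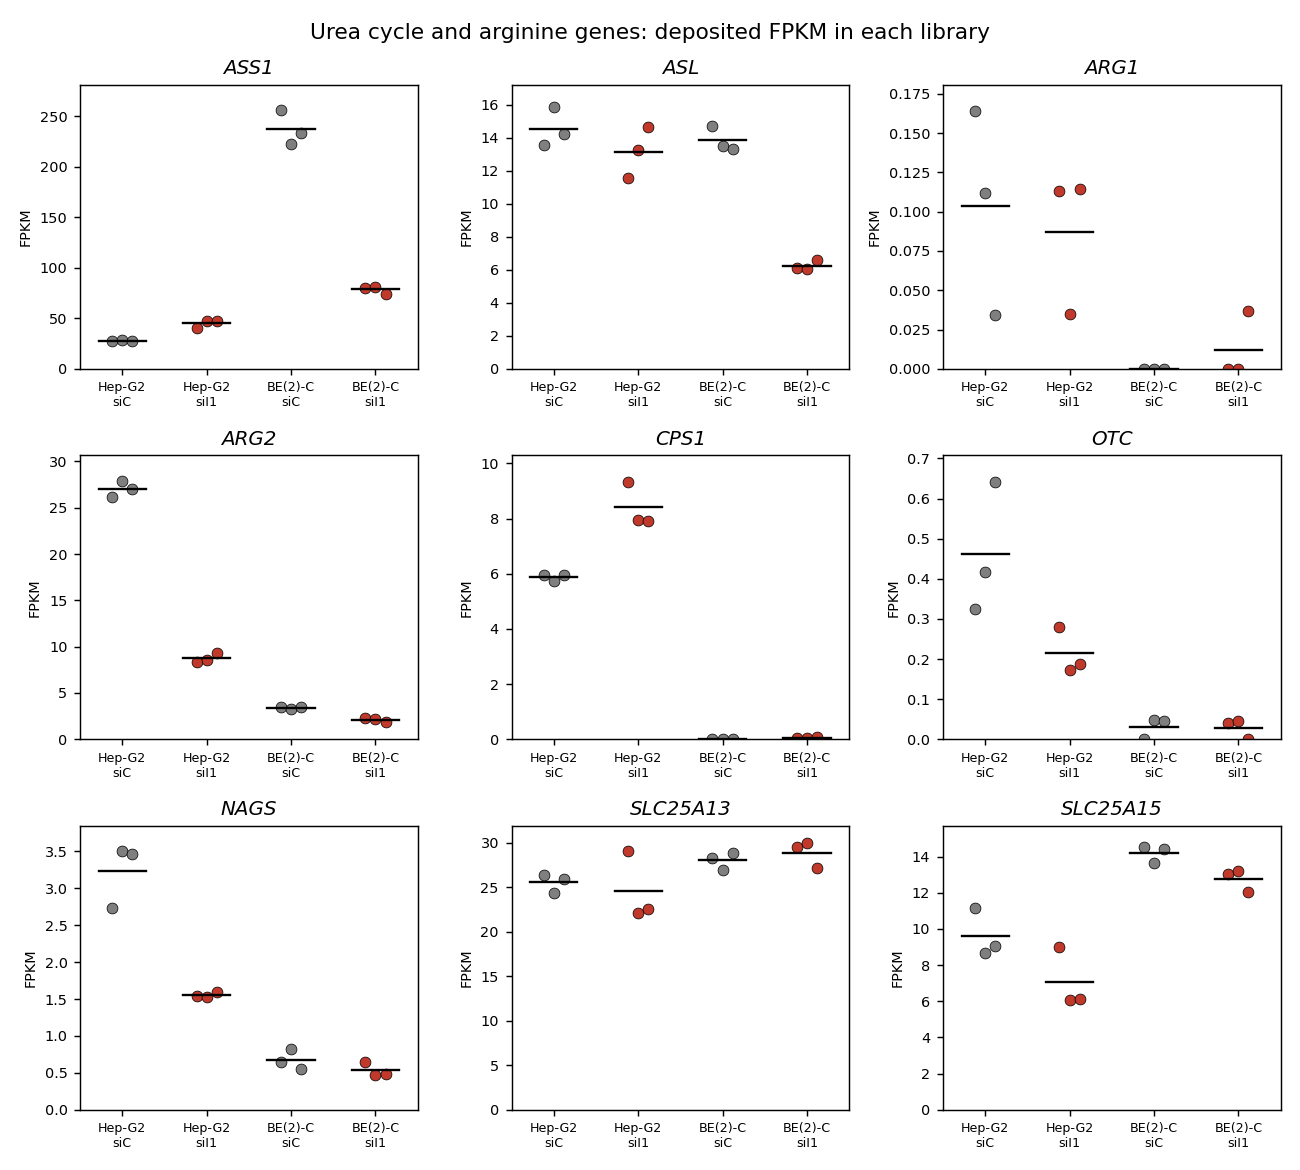
Deposited FPKM of the 9 genes in each of the 12 libraries (points; grey, siC; red, siI1), with the mean of 3 libraries as a line and a linear axis from 0 for each gene. ASS1 rises from about 27.9 to 44.9 FPKM in Hep-G2 and falls from 237 to 78.5 FPKM in BE(2)-C.

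ASL, the lyase that follows ASS1, lies at chr7:66075800-66094697 and had nearly the same level in the control libraries of both lines. It was at 13.6, 15.9 and 14.2 FPKM with siC and 11.6, 13.2 and 14.6 FPKM with siI1 in Hep-G2, and at 14.7, 13.5 and 13.3 FPKM with siC and 6.11, 6.04 and 6.58 FPKM with siI1 in BE(2)-C. The groups overlapped in Hep-G2, where the log2 difference was -0.15 (SE 0.102). It was -0.06 without siI1 replicate 1, and -0.32 with libraries scaled to equal sums of FPKM. The groups lay apart in BE(2)-C, where the difference was -1.14 (SE 0.0637), a 2.22-fold lower mean. ASS1 and ASL, the pair that remakes arginine from citrulline, were both lower with siI1 in BE(2)-C. The ratio of ASS1 to ASL FPKM was 17.2 ± 0.559 (SD, n = 3) with siC and 12.6 ± 1.18 with siI1 in BE(2)-C, and 1.92 ± 0.132 with siC and 3.43 ± 0.173 with siI1 in Hep-G2.

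ARG2, the mitochondrial arginase, was the member with the lowest siI1 to siC ratio in Hep-G2. It was at 26.2, 27.9 and 27.0 FPKM with siC and 8.32, 8.58 and 9.28 FPKM with siI1 in Hep-G2, and at 3.46, 3.32 and 3.46 FPKM with siC and 2.27, 2.17 and 1.82 FPKM with siI1 in BE(2)-C. In both lines the siI1 libraries lay below the siC libraries without overlap. The log2 differences were -1.62 (SE 0.0608) in Hep-G2 and -0.69 (SE 0.106) in BE(2)-C, or 3.10-fold and 1.64-fold lower means. Exons of ARG2 share 904 bases with exons of VTI1B on the other strand in GENCODE v44. The library kit kept strand, the strand setting of the counting is not given in the sources used here, and VTI1B, named for this overlap after its values were seen, had means of 13.0 and 13.0 FPKM with siC and siI1 in Hep-G2 and of 9.39 and 9.60 FPKM in BE(2)-C. Exons of ASL share 563 bases with another gene on the same strand, and those of SLC25A15 share 96 bases with MIR621 on the same strand and 152 with a gene on the other strand. MIR621, also named after its values were seen, had means of 42.7 and 25.9 FPKM with siC and siI1 in Hep-G2 and of 54.9 and 40.5 FPKM in BE(2)-C. The liver arginase ARG1 had 1 to 5 reads per library in Hep-G2, at most 0.164 FPKM, and 1 read in the 6 BE(2)-C libraries together.

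The starts of ASS1, ASL and ARG2 are shown because, among values past the filter, these genes had the largest log2 differences in 1 line or the other. RefSeq lists a promoter window, 250 bases before to 50 after a start, for 9 of the 9 genes on GRCh38.p14, and the windows below are chr9:130444711-130445010, chr7:66075569-66075868 and chr14:67619670-67619969, each on the plus strand, written 5' to 3'. Capitals mark matches on either strand to an E-box (letters CACGTG), a GC box (letters GGGCGG), the letters CCAAT and a C/EBP core (letters TTGCNNAA), and neighbouring GC boxes can overlap.
ASS1: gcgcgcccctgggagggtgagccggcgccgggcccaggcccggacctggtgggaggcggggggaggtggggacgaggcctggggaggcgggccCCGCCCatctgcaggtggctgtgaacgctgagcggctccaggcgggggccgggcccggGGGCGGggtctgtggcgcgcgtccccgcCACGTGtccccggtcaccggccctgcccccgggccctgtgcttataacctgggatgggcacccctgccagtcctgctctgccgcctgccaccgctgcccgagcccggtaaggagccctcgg
ASL: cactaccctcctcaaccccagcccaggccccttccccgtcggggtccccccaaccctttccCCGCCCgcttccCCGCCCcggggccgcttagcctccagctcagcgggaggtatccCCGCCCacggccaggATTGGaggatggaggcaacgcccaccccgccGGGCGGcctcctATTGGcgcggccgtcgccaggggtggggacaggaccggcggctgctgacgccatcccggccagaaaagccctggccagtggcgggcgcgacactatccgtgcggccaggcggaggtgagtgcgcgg
ARG2: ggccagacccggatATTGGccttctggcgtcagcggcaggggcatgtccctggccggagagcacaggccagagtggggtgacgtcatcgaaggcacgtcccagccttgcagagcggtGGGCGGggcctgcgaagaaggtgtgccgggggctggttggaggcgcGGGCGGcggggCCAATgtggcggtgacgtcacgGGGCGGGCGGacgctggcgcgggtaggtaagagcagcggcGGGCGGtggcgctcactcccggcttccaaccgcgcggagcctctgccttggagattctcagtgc
RefSeq lists another start for ASS1 and 3 for CPS1, not shown. The ASS1 window shown held 1 E-box and 2 GC boxes, that of ASL 4 GC boxes and 2 CCAAT boxes, and that of ARG2 5 GC boxes and 2 CCAAT boxes. The other ASS1 window held 0 E-boxes and 2 GC boxes. That of SLC25A13 held 1 E-box, 2 GC boxes and 1 CCAAT box, and those of NAGS and SLC25A15 held 5 GC boxes each. Of 35116 promoter windows of this length, 7.26% held an E-box, 45.0% a GC box, 34.6% a CCAAT box and 10.5% a C/EBP core. A match describes letters and not binding. The windows of ARG1 and OTC held none of these letters, and 1 of 3 windows of CPS1 held 1 E-box and 1 CCAAT box.

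CPS1, the mitochondrial entry enzyme, spans chr2:210477682-210679107 and is a hepatocyte gene. In Hep-G2 it was at 5.95, 5.74 and 5.94 FPKM with siC and 9.33, 7.94 and 7.93 FPKM with siI1. The siI1 libraries lay above the siC libraries, with a log2 difference of 0.50 (SE 0.0820), or 1.43-fold higher, and of 0.43 without siI1 replicate 1, the highest of its group. Only 3 reads of BE(2)-C fell on CPS1 in the 3 siC libraries together and 28 in the 3 siI1 libraries, below the filter. This difference was not tested. These BE(2)-C levels were at most 0.0827 FPKM.

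NAGS, which makes the activator of CPS1, moved the other way from CPS1 in Hep-G2. It was at 2.74, 3.51 and 3.46 FPKM with siC and at 1.55, 1.53 and 1.59 FPKM with siI1, a log2 difference of -1.002 (SE 0.128) without overlap of the groups. The ratio of CPS1 to NAGS FPKM in Hep-G2 was 1.84 ± 0.290 (SD, n = 3) with siC and 5.40 ± 0.559 with siI1. NAGS in BE(2)-C was at 0.642, 0.829 and 0.557 FPKM with siC and 0.642, 0.476 and 0.485 FPKM with siI1, and these groups overlapped. OTC, which makes citrulline, had 4 to 15 reads per library in Hep-G2, with 0.325, 0.417 and 0.642 FPKM with siC and 0.280, 0.173 and 0.189 FPKM with siI1. Each OTC siI1 value in Hep-G2 lay below each siC value, with a log2 difference of -0.81 (SE 0.307), and in BE(2)-C OTC had at most 1 read in a library.

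SLC25A13, the aspartate and glutamate carrier that feeds ASS1, was at 26.4, 24.4 and 26.0 FPKM with siC and 29.0, 22.05 and 22.5 FPKM with siI1 in Hep-G2, and its siC and siI1 values overlapped in both lines. Its BE(2)-C values were 28.3, 27.0 and 28.9 FPKM with siC and 29.5, 30.0 and 27.1 FPKM with siI1. The log2 difference in Hep-G2 was -0.07 (SE 0.109), or -0.20 without siI1 replicate 1 and -0.24 with equal sums of FPKM. That in BE(2)-C was 0.04 (SE 0.0540). SLC25A15, which exchanges ornithine for citrulline, was at 11.1, 8.67 and 9.08 FPKM with siC and 8.98, 6.09 and 6.11 FPKM with siI1 in Hep-G2, where siI1 replicate 1 alone lay within the siC range. Its log2 difference there was -0.46 (SE 0.172), and -0.64 without that library. The BE(2)-C siI1 libraries of SLC25A15, at 13.0, 13.2 and 12.03 FPKM, lay below the siC libraries, at 14.5, 13.6 and 14.4 FPKM, with a log2 difference of -0.15 (SE 0.0563).

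**Figure D2:**
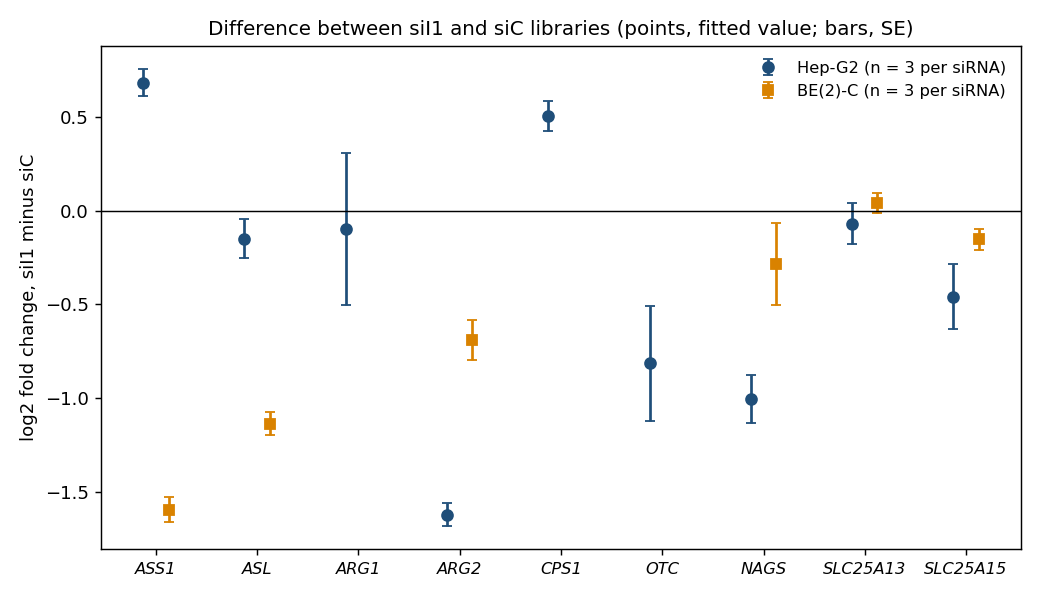
Fitted log2 difference between siI1 and siC libraries (points) with its SE (bars) for each gene that passed the filter in Hep-G2 (circles) and BE(2)-C (squares), 3 libraries for each siRNA. ASS1 and CPS1 lie above 0 in Hep-G2, and ASS1, ASL and ARG2 lie lowest in BE(2)-C.

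Of the 9 genes in Hep-G2, 4 had an adjusted p below 0.05, where 44.8% of the 19436 genes tested did. Of the 6 genes tested in BE(2)-C, 3 did, where 28.2% of 18656 did. Nothing is read from these counts or from the medians that follow, since the contrast was used to choose the genes. The median log2 difference was -0.15 over the 9 genes in Hep-G2 and -0.49 over the 6 in BE(2)-C, and 0.01 and 0.02 over the genes tested.

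Taken as a sum, the 9 transcripts made up 114.4 ± 0.65 FPKM (SD, n = 3) with siC and 108.7 ± 1.52 FPKM with siI1 in Hep-G2. In BE(2)-C the sum was 298 ± 18.6 FPKM with siC and 129 ± 5.96 FPKM with siI1. The make-up shifted in both lines. ASS1 took 24.4% of the sum with siC and 41.4% with siI1 in Hep-G2 while ARG2 went from 23.6% to 8.03%, and in BE(2)-C ASS1 went from 79.8% to 60.8% while SLC25A13, whose own level hardly changed, went from 9.43% to 22.3% of the smaller sum.

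**Figure D3:**
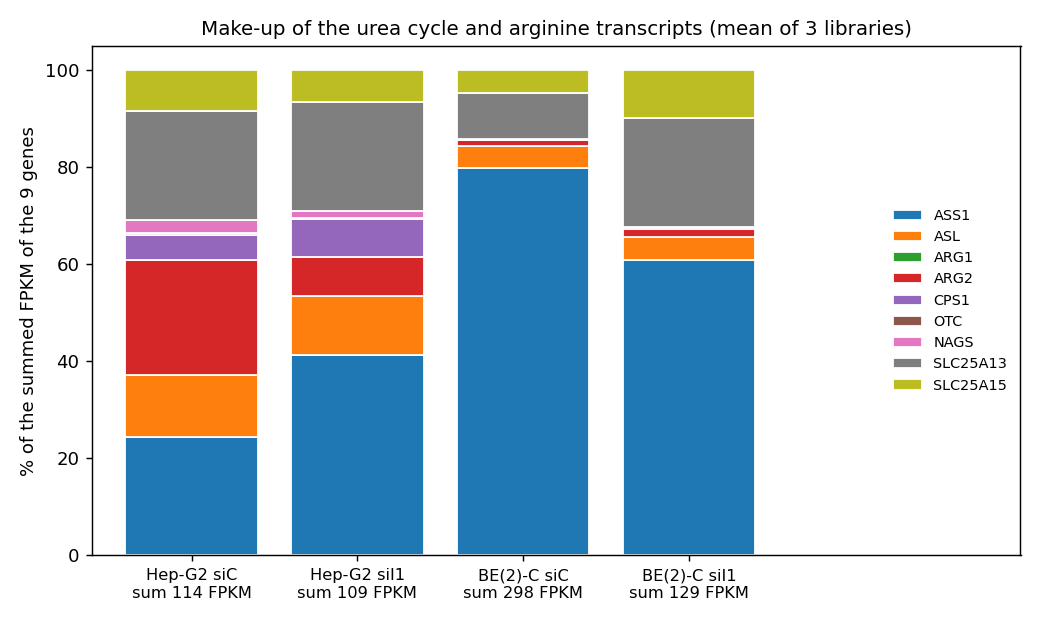
Share of each gene in the summed FPKM of the 9 genes (y axis, percent, mean of 3 libraries) in the 4 groups, with the mean sum under each bar. ASS1 takes 24.4% with siC and 41.4% with siI1 in Hep-G2, and 79.8% with siC and 60.8% with siI1 in BE(2)-C.

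The control libraries show how differently the pathway was laid out in the 2 lines before IGF2BP1 was lowered. For this comparison, which shares its siC libraries with the comparisons above, reads recovered from the FPKM values were rescaled to 1 scale over the 12 libraries and tested with limma, and cell line and library batch cannot be told apart. On that scale ASS1 had 28.3 ± 0.570 FPKM (SD, n = 3) in Hep-G2 and 236 ± 14.3 FPKM in BE(2)-C, a log2 difference of -3.05 (limma, adjusted p = 4e-12), with each BE(2)-C library higher. ARG2 was the reverse, with 27.4 ± 0.739 and 3.40 ± 0.0874 FPKM and a difference of 2.98 (adjusted p = 1.5e-11). NAGS was higher in Hep-G2 (2.14, adjusted p = 1.7e-07) and SLC25A15 higher in BE(2)-C (-0.53, adjusted p = 0.0079).

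ASL and SLC25A13 did not pass the test between the control libraries, at 0.10 (limma, adjusted p = 0.28) and -0.10 (adjusted p = 0.39). With equal sums of FPKM, a scaling that moved the median of the genes tested by 0.10, ASL passed at 0.23 (adjusted p = 0.012, alternatives between 0.012 and 0.70), and with median centring, which moved it by -0.16, SLC25A13 passed at -0.27 (adjusted p = 0.023, alternatives between 0.023 and 0.82). ARG1, CPS1 and OTC entered this fit through Hep-G2 only and are given as reads. CPS1 had 2697 reads in the Hep-G2 siC libraries and 3 in those of BE(2)-C, a ratio of 861 (exact 95% interval 294 to 4180), and OTC had 32 and 2, a ratio of 15.3 (3.91 to 132), with intervals that cover counting error only. ARG1 had 9 reads in Hep-G2 and 0 in BE(2)-C, at least 2.87-fold higher against a floor of 3 reads over the group. Among the genes tested, 72.5% differed between the control libraries at an adjusted p below 0.05, so differences of this kind were common.

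Over the 4 groups, ASS1 ran from BE(2)-C siC, at 236 FPKM, through BE(2)-C siI1 and Hep-G2 siI1, at 78.9 and 44.2 FPKM, to Hep-G2 siC, at 28.3 FPKM, and neighbours in this order did not overlap. ARG2 ran the other way between lines, from Hep-G2 siC (27.4 FPKM) over Hep-G2 siI1 (8.59 FPKM) to BE(2)-C siC (3.40 FPKM) and siI1 (2.09 FPKM), again without overlap of neighbours. CPS1 was ordered without overlap from Hep-G2 siI1 to Hep-G2 siC, BE(2)-C siI1 and BE(2)-C siC, the last pair under 0.1 FPKM. For ASL the 3 upper groups overlapped and BE(2)-C siI1 stood alone below them at 6.28 FPKM. For SLC25A13 each neighbour overlapped the next, for SLC25A15 the 2 Hep-G2 groups overlapped, for NAGS and OTC the 2 BE(2)-C groups did, and for ARG1 each neighbour overlapped the next.

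Other genes that make, carry or use the same metabolites were taken from 6 lists of 90 genes, of which 81 were tested in Hep-G2 and 74 in BE(2)-C. With siI1, limma called 33 of them lower and 22 higher in Hep-G2, where 23% and 21.9% of the genes tested were lower and higher. In BE(2)-C, 19 were lower and 7 higher, where 14.8% and 13.3% were. The median log2 difference of the listed genes was -0.12 for Hep-G2 and -0.07 for BE(2)-C, against 0.01 and 0.02 over the genes tested. The 22 higher genes of Hep-G2 became 14 without siC replicate 1 and 11 with equal sums of FPKM, a scaling that moved the median of the tested genes by -0.15, and the 7 of BE(2)-C became 11 with limma-voom. Over the genes tested in BE(2)-C, the higher ones went from 2489 to between 1495 and 1612 without siI1 replicate 1, 2 or 3. The difference between the effects in the 2 lines was tested for the 71 listed genes that passed in both, and 42 had an adjusted p below 0.05, where 40.3% of the genes tested in both tables did. The lines also differed in siRNA concentration and medium, which cannot be told apart from cell line in this test. The 6 lists were drawn up with earlier results of these data known. Their counts and medians are thus a description, and nothing is read from how they compare with those over all genes tested.

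**Figure D4:**
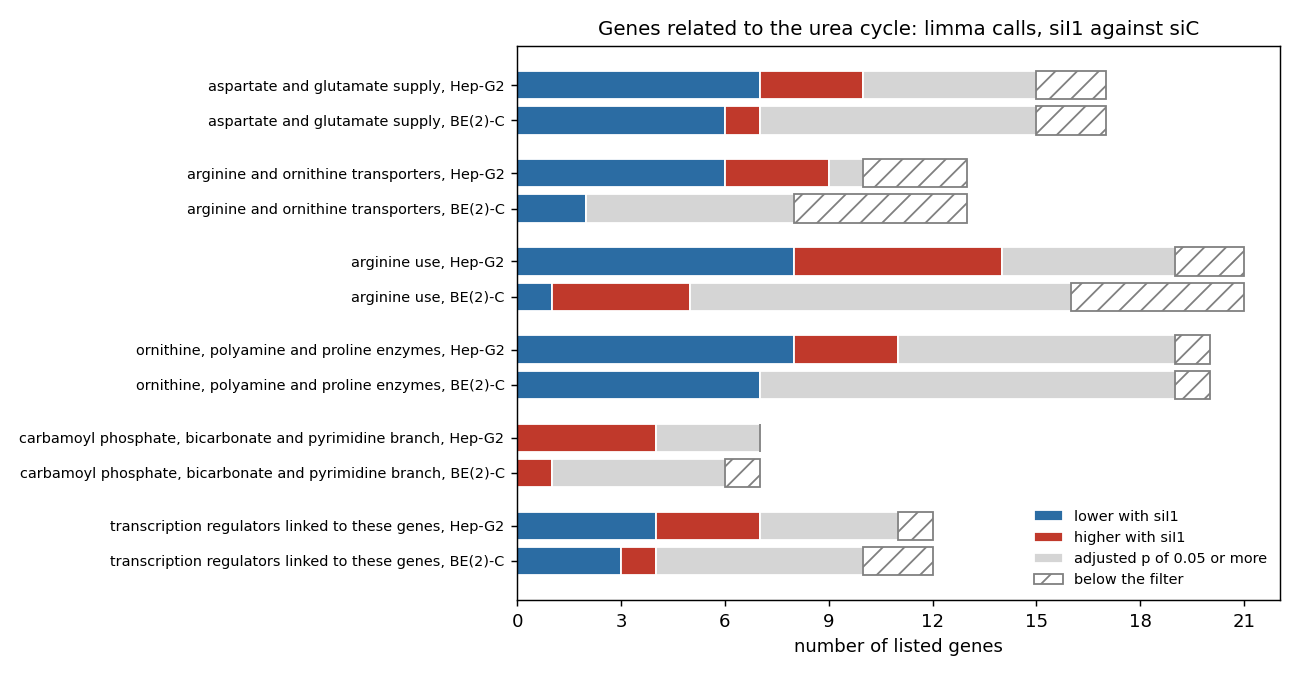
Number of listed genes in 6 groups related to the urea cycle that were lower (blue) or higher (red) with siI1 by limma at an adjusted p below 0.05, that did not pass (grey) or that were below the filter (hatched), for each cell line. Of the ornithine, polyamine and proline enzymes, Hep-G2 had 8 lower and 3 higher and BE(2)-C 7 lower and 0 higher.

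Genes that supply aspartate and glutamate, the nitrogen donors of the pathway, gave 7 lower and 3 higher of 15 tested in Hep-G2 and 6 lower and 1 higher of 15 in BE(2)-C. The 3 higher genes became 5 without siI1 replicate 1 or with median centring, and 1 with equal sums of FPKM. GOT1, the cytosolic aminotransferase that makes and uses aspartate, was at 91.6, 91.3 and 95.2 FPKM with siC and 26.5, 30.9 and 32.1 FPKM with siI1 in Hep-G2, and at 44.5, 40.7 and 41.6 FPKM with siC and 27.2, 24.0 and 22.2 FPKM with siI1 in BE(2)-C. The siI1 libraries of both lines lay below their siC libraries, with log2 differences of -1.64 (limma, adjusted p = 1.7e-05) and -0.79 (adjusted p = 0.00076). The glutamine carrier SLC1A5 (-1.47, adjusted p = 8.8e-06, and -0.52, adjusted p = 0.001) and asparagine synthetase ASNS (-1.13, adjusted p = 5e-05, and -0.61, adjusted p = 0.00071) likewise fell in both, with Hep-G2 values given first. For each of these 3 genes the fall was larger in Hep-G2, with a difference between lines of -0.90 for GOT1, -1.01 for SLC1A5 and -0.58 for ASNS (limma, adjusted p of the difference 6.7e-05, 2.2e-06 and 0.00027). GLUD1, glutamate dehydrogenase, which releases ammonia in mitochondria, rose in Hep-G2 from 176 ± 10.8 to 324 ± 15.2 FPKM (adjusted p = 0.00013) and was at 40.1 ± 1.89 and 41.1 ± 0.625 FPKM in BE(2)-C (adjusted p = 0.60).

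Carriers of arginine and ornithine gave 6 lower and 3 higher of 10 tested in Hep-G2 and 2 lower and 0 higher of 8 in BE(2)-C by limma, where 2 were higher at an unadjusted p below 0.05. The 2 lower genes became 1 without siC replicate 1 or 3, without any 1 of the siI1 libraries, and with either other scaling. They also became 1 with a replicate block, and 3 with limma-voom. The 0 higher became 1 without siC replicate 1 or 3 and with limma-voom. SLC7A1, the main cationic amino acid transporter of most cells, was at 16.3, 14.8 and 17.3 FPKM with siC and 6.20, 4.95 and 4.34 FPKM with siI1 in Hep-G2, and at 36.7, 34.4 and 37.4 FPKM with siC and 33.9, 33.6 and 31.9 FPKM with siI1 in BE(2)-C. It fell in Hep-G2 (-1.64, limma, adjusted p = 0.00012) and did not pass in BE(2)-C (-0.12, adjusted p = 0.11), and the effects differed by -1.57 (adjusted p = 5.8e-05). In Hep-G2, SLC6A14 went from 2.64 ± 0.0860 to 0.129 ± 0.0214 FPKM (adjusted p = 1.9e-05) and SLC7A9 from 4.43 ± 0.232 to 0.709 ± 0.225 FPKM (adjusted p = 0.00011). SLC7A7, which exports arginine across basolateral membranes, rose there from 1.71 ± 0.0659 to 5.40 ± 0.213 FPKM (adjusted p = 2.6e-05). SLC3A2, the heavy chain shared by several of these carriers, was lower in BE(2)-C (-0.75, adjusted p = 0.00028) and in Hep-G2 (-0.32, adjusted p = 0.015, or 0.051 without siC replicate 2).

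The list of arginine use also holds enzymes that act on products of arginine, such as GAMT and DDAH1. It gave 8 lower and 6 higher of 19 tested in Hep-G2 and 1 lower and 4 higher of 16 in BE(2)-C. In Hep-G2 the 8 lower genes became 5 with any 1 library but siI1 replicate 1 left out and with median centring, and the 6 higher became 3 without siC replicate 3 and 2 with equal sums of FPKM. The nitric oxide synthases NOS3 and NOS2 fell in Hep-G2, NOS3 from 11.9 ± 0.422 to 4.03 ± 0.176 FPKM (limma, adjusted p = 1.2e-05) and NOS2 from 0.980 ± 0.181 to 0.150 ± 0.0277 FPKM (adjusted p = 0.00055). In BE(2)-C, NOS3 was near 0.2 FPKM with either siRNA and NOS2 had no read. GAMT, the last enzyme of creatine synthesis, moved in opposite directions, from 34.7 ± 1.25 to 78.7 ± 13.7 FPKM in Hep-G2 (1.16, adjusted p = 0.00044) and from 14.6 ± 1.47 to 8.99 ± 1.03 FPKM in BE(2)-C (-0.70, adjusted p = 0.0034). In Hep-G2 the lowest GAMT value with siI1 was again that of replicate 1, at 62.9 FPKM beside 85.5 and 87.7 FPKM, and the difference was 1.32 without it. DDAH1, which degrades methylated arginine that inhibits these synthases, and RARS, the arginyl-tRNA synthetase, went the other way, lower in Hep-G2 (-0.78 and -0.56) and higher in BE(2)-C (0.46 and 0.34), with adjusted p-values of the difference of 4.2e-06 and 1e-05.

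Enzymes of ornithine, polyamines and proline gave 8 lower and 3 higher of 19 tested in Hep-G2, where the 3 higher became 1 without siC replicate 1 or 3 and the 8 lower became 13 with equal sums of FPKM. Limma called 7 of 19 lower and 0 higher in BE(2)-C, with 2 higher at an unadjusted p below 0.05. The 0 higher became 2 without siC replicate 1 or with limma-voom. They became 1 without siC replicate 3, with median centring or with equal sums of FPKM. SAT1, which acetylates polyamines for export, was at 179, 192 and 180 FPKM with siC and 68.9, 70.9 and 72.9 FPKM with siI1 in Hep-G2, with no overlap (-1.37, limma, adjusted p = 9.3e-06). SAT1 in BE(2)-C was near 3 FPKM (2.97 ± 0.409 and 3.67 ± 0.123 FPKM, adjusted p = 0.088, or 0.042 without siC replicate 3). AMD1, which makes the aminopropyl donor of polyamine synthesis, and AZIN1, which frees ornithine decarboxylase from its inhibitor, were lower in Hep-G2 (-0.80 and -0.82, adjusted p = 0.00015 and 0.0014). ALDH4A1 of proline breakdown and DHPS, which uses spermidine to modify a translation factor, were lower in BE(2)-C (-0.68 and -0.62, adjusted p = 0.0012 and 0.00068).

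In the branch of carbamoyl phosphate and bicarbonate, 4 of 7 genes tested were higher in Hep-G2 and 1 of 6 in BE(2)-C by limma, and 0 were lower in either line, also at an unadjusted p below 0.05. The 4 became 2 without siC replicate 1, without siI1 replicate 2 and with equal sums of FPKM. CA5A, the mitochondrial carbonic anhydrase that supplies bicarbonate to CPS1, rose with CPS1 in Hep-G2, from 2.90 ± 0.164 to 5.66 ± 0.488 FPKM (limma, adjusted p = 0.00031), as did SIRT5, which removes acyl groups from CPS1 (0.44, adjusted p = 0.0032). CAD, which makes its own carbamoyl phosphate for pyrimidines, was higher in both lines, from 33.6 ± 3.62 to 46.9 ± 0.825 FPKM in BE(2)-C (0.48, adjusted p = 0.0045) and from 8.25 ± 0.347 to 9.36 ± 0.282 FPKM in Hep-G2 (0.18, adjusted p = 0.048). The Hep-G2 call of CAD held in 4 of 15 alternatives, and in none that left out 1 library.

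Among 12 transcription regulators tied to these genes, 4 were lower and 3 higher of 11 tested in Hep-G2, and 3 lower and 1 higher of 10 in BE(2)-C. With equal sums of FPKM the 4 lower genes of Hep-G2 became 7 and the 1 higher gene of BE(2)-C became 2. CEBPA, a hepatocyte regulator of CPS1 and other urea cycle genes, moved in the same directions as ASS1. It went from 44.2, 46.3 and 46.3 FPKM with siC to 153, 169 and 173 FPKM with siI1 in Hep-G2. In BE(2)-C it went from 1.38, 1.22 and 1.36 FPKM to 0.418, 0.376 and 0.356 FPKM. The groups lay apart in both lines, with log2 differences of 1.85 (limma, adjusted p = 5.1e-06) and -1.55 (adjusted p = 0.00088), which differed by 3.35 (adjusted p = 6.5e-09). A link between CEBPA and the values of the urea cycle genes was not tested. The glucocorticoid receptor NR3C1 rose in Hep-G2 (1.302, adjusted p = 0.00071) and was 1.11 without siI1 replicate 1, at 15.0 FPKM the highest library. MYC (-0.83, adjusted p = 7.7e-05) and HIF1A (-0.79, adjusted p = 0.00092) fell in Hep-G2, and HIF1A rose in BE(2)-C (0.47, adjusted p = 0.0021), a difference of -1.31 between lines (adjusted p = 8e-05). CEBPB fell in BE(2)-C (-0.76, adjusted p = 0.00016) and was at 35.0 ± 2.57 and 36.2 ± 4.02 FPKM in Hep-G2.

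**Figure D5:**
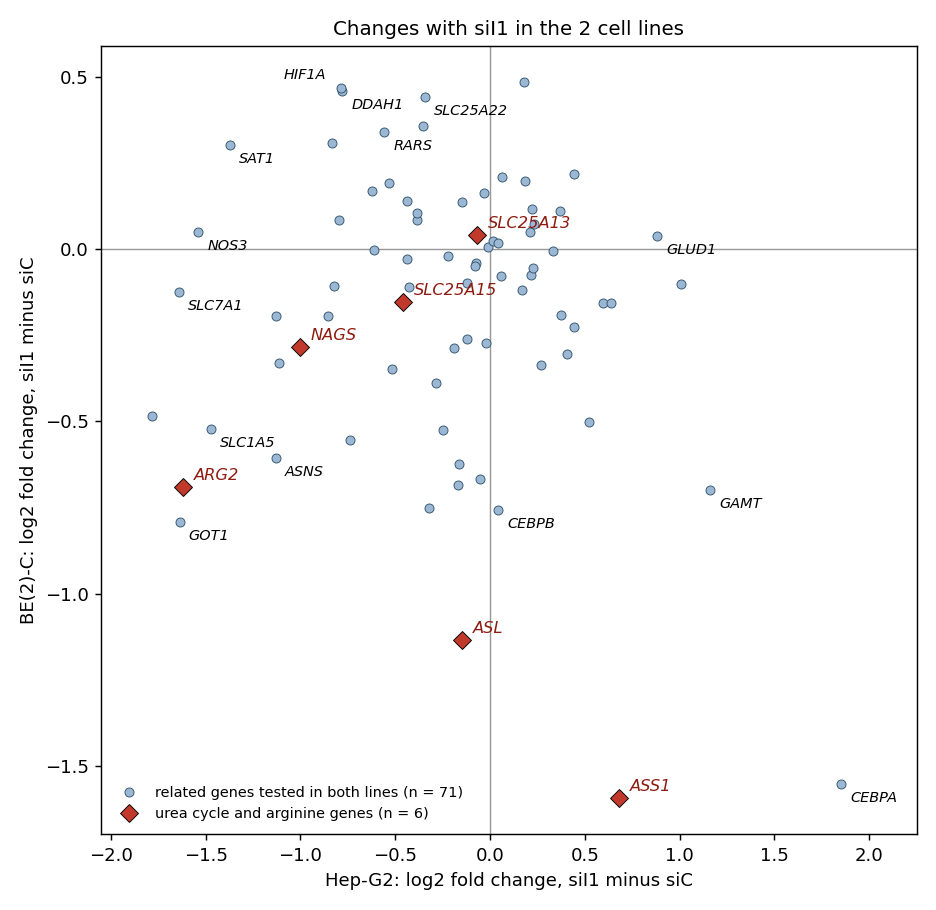
Log2 difference between siI1 and siC in Hep-G2 (x axis) and in BE(2)-C (y axis) for the 71 listed genes (circles) and the 6 urea cycle and arginine genes (diamonds) tested in both lines. ASS1, GAMT and CEBPA lie at the lower right, and ARG2, GOT1 and SLC1A5 lie at the lower left.

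Marker genes of the cell lines also differed between siI1 and siC libraries. In Hep-G2, 7 of 10 hepatocyte markers were higher and 2 lower with siI1, and their sum went from 8667, 8674 and 8602 FPKM to 14400, 16320 and 16520 FPKM, led by ALB, while AFP and TTR were the lower ones. In BE(2)-C, 3 of 11 neuroblastoma markers were higher and 5 lower by limma, and the sum went from 3951, 3723 and 3743 FPKM to 4121, 4007 and 4084 FPKM. Of the 7 fibroblast and blood markers, DCN and LUM were higher with siI1 in BE(2)-C, and the sum went from 28.75, 24.96 and 29.32 FPKM to 35.96, 37.38 and 35.64 FPKM, with PDGFRB the most abundant. In Hep-G2, HBB had 0 reads in each siC library and at most 12 with siI1, so it passed the filter through siI1 only and fell below it when any 1 siI1 library was left out. The sum of the 7 in Hep-G2 went from 0.809, 0.905 and 0.973 FPKM to 1.44, 2.08 and 1.11 FPKM. The part of these markers in the values of the urea cycle genes was not tested.

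The genes whose pattern was most like that of ASS1 were found by the Euclidean distance between 12 values of log2(FPKM + 0.1), centred within each cell line, over 11083 other protein-coding genes tested in both lines. They were CRACR2B, SLC12A4, TRIM47, LLGL2 and TRIP10, at distances of 0.434, 0.508, 0.567, 0.613 and 0.615, where the median distance was 2.31. SLC12A4, for example, had means of 11.2 and 22.4 FPKM with siC and siI1 in Hep-G2 and of 2.36 and 0.789 FPKM in BE(2)-C. By Pearson correlation over the same 12 values, 1 of these, TRIP10, stayed among the first 5, which were led by MYBL2. Of the 11084 protein-coding genes with ASS1 included, 476 were called in the same opposite directions as ASS1, up for Hep-G2 and down for BE(2)-C.

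Pseudogenes can take up reads, and 17 of the listed entries are pseudogenes named after ASS1 (11), SLC25A15 (5) or ASL (1). Reads fell on 6 of them. Each of the 11 pseudogenes of ASS1 had at most 7 reads in a library, and ASLP1 at most 11, against 1182 or more for ASS1 and 273 or more for ASL. How reads that match several places were counted is not given in the sources used here.

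The mRNAs of the 9 genes have mostly short 3' untranslated regions, a part of mRNAs that IGF2BP1 often binds. In the canonical GENCODE v44 transcripts, 8 of 9 were shorter than 1313 nt, the median of 10565 genes tested in both lines, with 253 nt for ASS1, 664 nt for ASL, 788 nt for ARG2 and 1122 nt for CPS1, and 2793 nt for SLC25A15. The letters CATA, CATC or CATT, in RNA a motif reported for IGF2BP proteins, occurred 1 time in that of ASS1, 8 times in that of ASL and 16 times in that of ARG2, or 3.95 per kilobase for ASS1 and 20.3 for ARG2, where the median of those genes was 11.6. The letters TGGAC were found in 3 of the 9 (CPS1, NAGS and SLC25A15) and in 61.8% of the 10565 genes. These shares were not corrected for length, and a shorter region has less room for a match. For the first motif, 7 of the 9 genes lay above that median, and ASS1 and NAGS lay below it.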

How the data were processed

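The deposited tables, 1 for each cell line, hold per-gene values that the authors made by clipping reads with cutadapt 1.14, aligning them to hg38 with HISAT2 2.1.0 and SAMtools 1.5, counting them per Ensembl gene with featureCounts 1.5.3 and scaling them to FPKM with edgeR 3.30.3, versions as given in the submitters' processing notes. The header names no unit, and FPKM was inferred from the values, since value times gene length was a whole multiple of 1 step per library for 100% of values at a tolerance of 0.001. The tables were normalized separately by the authors. Their columns with fold changes, p-values and false discovery rates were not used. The strand setting of the counting is not given in the sources used here.

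Within each table log2(FPKM + 0.1) was fitted with limma 3.58.1 in R 4.3.3 (mean-variance trend, moderated t-test, Benjamini-Hochberg over all genes with at least 0.1 FPKM in at least 3 libraries), and an adjusted p below 0.05 was called. For comparisons between cell lines, reads were recovered from FPKM and length, and FPKM recomputed from them was fitted over 12 libraries. The fits were tried on simulated data first. The named genes are up to 3 called genes for each list, cell line and direction, those with the largest log2 differences, and further genes were named for their role. Some listed genes count in the totals and are not reported here by name. The members and lists were chosen with earlier results of these data known, and some alternatives were added after seeing the data. Promoters are those of RefSeq on GRCh38.p14, and exons and untranslated regions those of GENCODE v44.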

Additional observations from a re-analysis of the deposited data

Results flagged for a closer look

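ASS1 is listed because its siI1 to siC difference had opposite directions in the 2 cell lines. The log2 effect in Hep-G2 minus that in BE(2)-C was 2.276, and this difference was not tested, since the genes were chosen by it.

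Further genes are listed because the effect of IGF2BP1 knockdown differed between the cell lines in the interaction test (limma, adjusted p below 0.05). The log2 effect in Hep-G2 minus that in BE(2)-C was above 0 for ALDH4A1 (0.455), CEBPA (3.346), CEBPB (0.742), DHPS (0.3992), GAMT (1.801), GLUD1 (0.785), GLUL (0.2355), OAZ2 (0.7339), SLC25A29 (0.6568) and SLC3A2 (0.3678). It was below 0 for AMD1 (-0.9385), ASNS (-0.5794), AZIN1 (-0.7754), CAD (-0.3624), DDAH1 (-1.295), GOT1 (-0.9048), HIF1A (-1.311), NOS3 (-1.64), PPARGC1A (-0.8353), PRMT3 (-0.7669), RARS (-0.9546), SAT1 (-1.731), SLC1A5 (-1.01), SLC25A22 (-0.8446) and SLC7A1 (-1.574).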

How the results depend on the processing

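Of 138 log2 values, 11 changed sign under an alternative, and 0 of these were called where they did. Higher network genes in Hep-G2 went from 22 to 11 with equal sums of FPKM and to 14 without siC replicate 1 (14 to 23 with 1 library left out). Called urea cycle genes in Hep-G2 went from 4 to 7 with equal sums (4 to 6 with 1 library left out), and nothing is read from this count, since the contrast chose the genes. Higher genes in BE(2)-C went from 2489 to 1612, 1523 and 1495 without siI1 replicate 1, 2 or 3 (1495 to 2129), and higher network genes there from 7 to 11 with limma-voom (6 to 9). With a replicate block, Hep-G2 had 4502 lower and 4318 higher genes and BE(2)-C 2531 and 2141. The cause of these shifts was not tested. As a check on pairing, siC and siI1 libraries with the same number gave r of 0.329, 0.321 and -0.0757 in Hep-G2. In BE(2)-C the same check gave 0.199, -0.0205 and 0.0204. These r values are not correlations of expression levels, which were 0.985 or more between libraries of a group. Only Hep-G2 1 and 2 and BE(2)-C 1 matched their own number best. Among the other values, 2158 stayed the same, 73 became weaker, 24 stronger and 13 moved.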
